A study of Homo sapiens with 11 samples.

Results

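NF-κB target genes, cytokines and chemokines were followed in 2 estrogen receptor positive human breast cancer lines after knockdown of nemo-like kinase (NLK), a MAP kinase relative. The genes were 36 symbols named in a list and read from the count tables, of 59087 genes in all. The rule uses no measured value, but the list was chosen with earlier results of these data known. Comparisons of the members with all genes below are therefore not independent of those results. They comprise 5 feedback inhibitors and regulators, 4 subunits of the factor itself, 4 signalling adaptors, 9 chemokines, 9 cytokines and 5 other responders. In every library some members were below 3 counts, the level taken here as not told from 0: between 26 and 33 of the 36 reached it. Between 19 and 25 members reached 1 TPM (a level scaled for gene length and for the library total).

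There were 11 libraries of poly(A) RNA, and each condition had 1. BT483 came from a ductal carcinoma of the breast. T47D-TamR is the tamoxifen-resistant form of T47D, selected by growing the parent line with the drug over many passages. Cells of both lines first spent 48 h without estrogen, in medium with stripped serum. BT483 cells then received NLK siRNA type 1, NLK siRNA type 2, control siRNA with 0.5 µM tamoxifen, or control siRNA alone, each siRNA at 10 nM for 72 h. T47D-TamR cells received the same 4 treatments, called the siRNA arm here. Other T47D-TamR cells, the drug arm, were not transfected and received 0.5 µM VX-702, DMSO with 0.5 µM tamoxifen, or DMSO alone. VX-702 is known as a p38 MAP kinase inhibitor and is named in the labels as a drug aimed at NLK. The control siRNA was a non-targeting pool. The lines were grown in different media before the experiment, T47D-TamR with tamoxifen present, so a difference between lines and a difference in culture history cannot be told apart. The labels do not say whether the libraries came from separate experiments, so each p-value speaks for the spread of these libraries alone, which may be technical.

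NF-κB is a family of dimers built from RelA, c-Rel, RelB, p50 and p52. In resting cells inhibitors of the IκB family hold the dimers in the cytoplasm, and signals from TNF, interleukin 1 or Toll-like receptors lead to destruction of the inhibitor and entry of the dimer into the nucleus. There it binds κB sites in DNA and switches on cytokines, chemokines and adhesion molecules together with its own inhibitors, which close a negative feedback loop. In breast epithelium the pathway is known for inflammatory signalling and cell survival, and several of its chemokine targets also answer to interferons.

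The promoter windows of 4 members are shown because they carry the motifs by which this gene group is known and because these genes recur below. A window runs from 250 bases before to 50 bases after a RefSeq start on GRCh38.p14, read 5′ to 3′ along the gene. Of the 36 members, 30 had an entry in the RefSeq table; RELB, CCL2, CCL5, NFKBIE, IER3 and CSF1 had none. Capitals mark matches to the κB consensus in the first 3 windows. This consensus was taken as GGG, a purine, any base, A or T, a pair of pyrimidines and CC. In the CXCL10 window capitals also mark a match to the interferon response core, which is TTTC, a pair of any bases and TTTC again. Both motifs were read on either strand. In the TNFSF10 window the capitals mark the interferon core alone. TNFAIP3 lies at chr6:137867009-137867308 on the plus strand, NFKBIA at chr14:35404700-35404999 on the minus strand, CXCL10 at chr4:76023448-76023747 on the minus strand and TNFSF10 at chr3:172523381-172523680 on the minus strand.
TNFAIP3: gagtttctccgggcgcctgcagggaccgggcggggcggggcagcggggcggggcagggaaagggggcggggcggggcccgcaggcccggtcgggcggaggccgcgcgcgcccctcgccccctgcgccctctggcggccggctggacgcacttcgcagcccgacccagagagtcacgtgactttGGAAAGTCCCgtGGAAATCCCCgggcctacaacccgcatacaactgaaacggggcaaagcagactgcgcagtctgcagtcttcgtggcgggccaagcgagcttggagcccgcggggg
NFKBIA: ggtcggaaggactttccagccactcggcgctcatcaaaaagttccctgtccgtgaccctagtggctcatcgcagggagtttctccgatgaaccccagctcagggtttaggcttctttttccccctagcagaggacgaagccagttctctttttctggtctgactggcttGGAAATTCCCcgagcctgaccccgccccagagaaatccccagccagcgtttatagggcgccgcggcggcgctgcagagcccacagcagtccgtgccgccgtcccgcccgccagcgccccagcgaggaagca
CXCL10: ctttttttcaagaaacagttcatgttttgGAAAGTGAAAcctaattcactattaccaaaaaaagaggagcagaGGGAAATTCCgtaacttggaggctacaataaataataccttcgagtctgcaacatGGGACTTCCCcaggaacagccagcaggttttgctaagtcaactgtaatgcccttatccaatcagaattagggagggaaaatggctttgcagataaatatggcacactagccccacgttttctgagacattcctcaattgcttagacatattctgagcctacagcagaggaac
TNFSF10: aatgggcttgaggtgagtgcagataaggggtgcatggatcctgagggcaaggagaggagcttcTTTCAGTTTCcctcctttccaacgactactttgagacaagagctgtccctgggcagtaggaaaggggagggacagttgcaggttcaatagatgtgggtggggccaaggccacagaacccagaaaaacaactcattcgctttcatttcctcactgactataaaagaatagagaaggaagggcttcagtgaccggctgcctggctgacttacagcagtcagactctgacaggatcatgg

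Counted in bases from the start, TNFAIP3 showed 2 κB matches beginning at -67 and -55, and NFKBIA showed 1 at -81. CXCL10 held κB matches at -177 and -122 and the interferon core at -221. TNFSF10 held the interferon core at -187 and no κB match. Over all windows, 19 of the 30 members with an entry had at least 1 κB match on either strand, while 5.91% of 35116 RefSeq promoter windows, or 7.09% of 27305 genes, had one. The interferon core was present in 3 members (MAP3K8, CXCL10 and TNFSF10), against 3.57% of windows and 4.38% of genes. These shares count a window or gene once however many matches it holds, and CXCL1, CXCL2 and CXCL3 are near-identical paralogs, so their matches are not independent. IL20, TRAF1, IRAK2, CXCL8, IL1A, IL1B, TNF, ICAM1, SOD2 and TNFAIP2 had no match to this κB consensus in these windows. Stretches 1 base off the consensus were not counted, such as tggaatttcc in the CXCL8 window and tggaaattcc in the ICAM1 window. A match describes letters in a window, not binding.

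**Figure D1:**
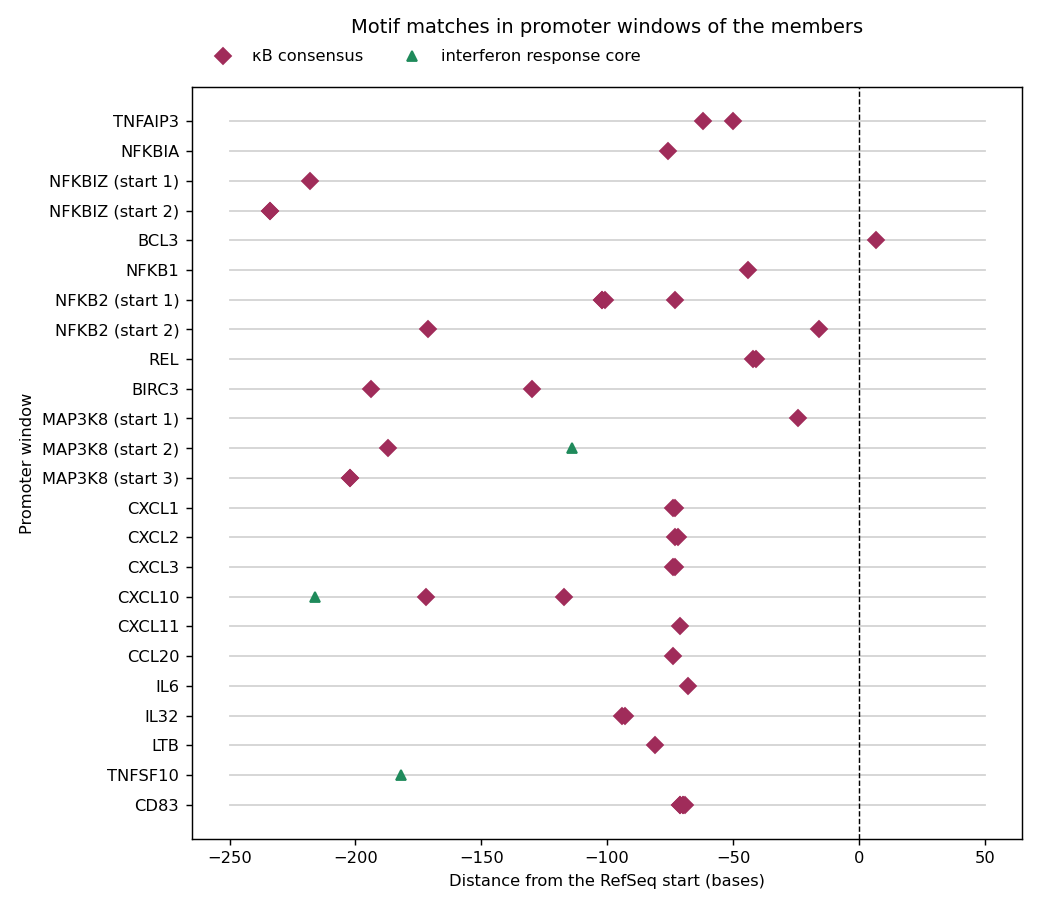
Motif matches in the promoter windows of the members that hold at least 1, by distance in bases from the RefSeq start (dashed line at 0) to the middle of the match, with diamonds for the κB consensus, triangles for the interferon response core and a row for each annotated start. The chemokines CXCL1, CXCL2 and CXCL3 carry their match at nearly the same distance, and TNFSF10 carries the interferon core alone.

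Library depth ran from 14637083 to 26915863 counts, so that 3 counts were worth 0.112 to 0.205 CPM (counts per 1e6 counts of the library). NLK itself, the targeted gene, had 8.56 and 5.50 CPM with NLK siRNA types 1 and 2 in BT483, against 30.003 CPM with control siRNA. In T47D-TamR it had 10.2 and 11.95 CPM with the NLK siRNAs, against 29.6 CPM with control siRNA. Across both lines NLK fell by 1.75 on the log2 scale (SE 0.21, adjusted p = 0.0308 by edgeR's quasi-likelihood test, adjusted over all genes after Benjamini and Hochberg). Within BT483 NLK fell by 2.13 (SE 0.26, edgeR adjusted p = 0.0198), and within T47D-TamR its value of -1.38 (SE 0.24, adjusted p = 0.333) did not pass. The NLK call over both lines is the only one of that test, and edgeR called 0 genes without the control siRNA library of either line, the BT483 type 1 library or either DMSO library. All 8 luminal markers had at least 3 counts in every library. Their summed levels were 11733 to 12979 TPM in BT483 and 3542 to 5417 TPM in T47D-TamR. Among them ESR1, the estrogen receptor gene, had 25.4 to 33.5 TPM in BT483 and 3.71 to 6.68 TPM in T47D-TamR. Leukocyte markers were near 0, with 1 to 4 of 9 at 3 counts or more and summed levels of 0.682 to 4.66 TPM. Fibroblast markers summed to 14.4 to 22.1 TPM in T47D-TamR and 3.33 to 4.12 TPM in BT483, with 1 to 7 of 7 at 3 counts, and endothelial markers to at most 1.16 TPM. In RNA from whole cultures, fewer cells that express a gene and less of its RNA per cell cannot be told apart.

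The baseline state of the pathway differed between the lines for nearly every member that could be compared. Of the 27 members tested in the siRNA arms, 25 passed the threshold of 0.05 on the adjusted p (edgeR quasi-likelihood test, 4 BT483 libraries against 4 T47D-TamR libraries paired by treatment), 6 higher and 19 lower in BT483. That share has to be read against the background, since 70.7% of all 21990 genes tested also passed. All 5 of the other responders and all 3 testable chemokines were lower in BT483, and members higher in BT483 came from the regulators, subunits, adaptors and cytokines. The median log2 difference over the 27 members was -1.39, beside 0.0063 over all genes. It was -0.95 over the 23 well-measured members (average log2 CPM of at least 1) and -1.23 over the 22 of them other than IL20. The lines also differ in medium and in luminal and fibroblast marker levels, given above, and the part of these in the member levels was not tested.

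Levels are given per gene length, in TPM, in the order NLK siRNA type 1, type 2, control siRNA with tamoxifen and control siRNA for BT483, and as lowest, median and highest of 7 libraries for T47D-TamR. Among the feedback genes, NFKBIA, which encodes the inhibitor IκBα, was the most abundant and one of 2 tested members that did not differ between lines. It had 156, 123, 111 and 122 TPM in BT483, against 78.1, 96.02 and 162 TPM in T47D-TamR. Its ranges overlapped, and the log2 difference was 0.043 (SE 0.14, adjusted p = 0.786). TNFAIP3, which encodes the ubiquitin-editing enzyme A20, had 1.43, 1.68, 0.842 and 0.888 TPM in BT483, against 3.996, 6.60 and 19.8 TPM in T47D-TamR. No BT483 library reached the lowest T47D-TamR library, a log2 difference of -3.26 (adjusted p = 4.04e-08). NFKBIE, the gene of IκBε, had 14.2, 10.04, 11.6 and 12.4 TPM in BT483, against 21.7, 27.9 and 48.3 TPM in T47D-TamR. It too was lower in every BT483 library (log2 difference -1.62). NFKBIZ, which encodes a nuclear IκB protein, had 9.42, 12.1, 4.93 and 13.6 TPM in BT483, against 2.62, 3.40 and 4.59 TPM in T47D-TamR. BCL3, another nuclear IκB protein, had 44.7, 40.1, 50.9 and 38.2 TPM in BT483, against 18.7, 26.5 and 40.7 TPM in T47D-TamR. Both nuclear regulators were higher in BT483, by 1.14 for NFKBIZ and 0.58 for BCL3 on the log2 scale.

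Among the subunits, REL alone was higher in BT483. REL, which encodes c-Rel, had 4.18, 5.57, 3.51 and 4.43 TPM in BT483, against 1.77, 1.999 and 3.38 TPM in T47D-TamR (log2 difference 0.65). RELB, the partner of p52 in the alternative pathway, had 7.03, 5.28, 4.82 and 5.69 TPM in BT483, against 12.6, 16.5 and 42.8 TPM in T47D-TamR. The RELB ranges were far apart, with a log2 difference of -2.29 (adjusted p = 1.83e-06). NFKB1, the gene of p105 and p50, had 19.2, 17.7, 15.3 and 17.3 TPM in BT483, against 22.1, 23.1 and 40.4 TPM in T47D-TamR. NFKB2, the gene of p100 and p52, had 48.5, 37.3, 42.3 and 40.5 TPM in BT483, against 50.2, 55.6 and 103 TPM in T47D-TamR. For both precursors the ranges did not overlap, and BT483 was lower by less than RELB, at -0.88 for NFKB1 and -0.93 for NFKB2.

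The adaptors split by line. TRAF1, an adaptor of TNF receptors, had 4.83, 2.89, 5.26 and 4.29 TPM in BT483, against 0.284, 0.442 and 0.824 TPM in T47D-TamR, a log2 difference of 2.81 (adjusted p = 1.13e-06). BIRC3, the ubiquitin ligase cIAP2 that works with TRAF proteins, had 0.266, 0.292, 0.332 and 0.274 TPM in BT483, against 1.11, 1.89 and 4.0003 TPM in T47D-TamR. It stood the other way from TRAF1, at -3.23 (adjusted p = 2.6e-06). MAP3K8, the kinase TPL2, had 4.66, 6.71, 4.10 and 3.56 TPM in BT483, against 1.44, 2.19 and 3.17 TPM in T47D-TamR (log2 difference 0.71). IRAK2, a kinase of the interleukin 1 and Toll-like receptor pathway with an average just under the level set for full description, had 4, 5, 2 and 1 counts in BT483 and between 46 and 101 counts in T47D-TamR. Its log2 difference was -4.65 (adjusted p = 5.07e-07).

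The widest line differences were in 2 secreted proteins that stood at opposite poles. CCL2, the main monocyte attractant, had 0.604, 0.221, 0.328 and 0.432 TPM in BT483, from 4 to 6 counts per library, against 96.5, 114 and 121 TPM in T47D-TamR. The log2 difference was -8.31 (SE 0.20, adjusted p = 1.3e-10). IL20, a cytokine of the interleukin 10 family, had 222, 116, 60.3 and 241 TPM in BT483, and T47D-TamR had 1 count in 1 of its 7 libraries and 0 in the others. Against 3 counts in the shallowest T47D-TamR library of the siRNA arm, 0.127 CPM, IL20 was at least 272-fold higher in the lowest BT483 library, at 34.5 CPM before scaling of the totals. The IL20 promoter window held neither motif.

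CCL5, a T cell and monocyte attractant that answers to both NF-κB and interferon, had 5.74, 13.5, 3.04 and 4.01 TPM in BT483, against 2.37, 18.996 and 34.3 TPM in T47D-TamR. Its ranges overlapped over all 11 libraries, since the drug arm was low, and within the siRNA arms the log2 difference was -2.25 (adjusted p = 6.03e-06). IL32, a proinflammatory cytokine, had 0.998, 1.16, 0.947 and 0.909 TPM in BT483, against 3.16, 8.45 and 18.1 TPM in T47D-TamR. CSF1, the macrophage growth factor, had 1.41, 1.49, 0.684 and 1.28 TPM in BT483, against 1.47, 2.54 and 11.4 TPM in T47D-TamR. Both cytokines were lower in BT483, by -3.60 for IL32 and -2.17 for CSF1. TNFSF10, the death ligand TRAIL, had 17.2, 10.6, 22.7 and 12.5 TPM in BT483, against 14.9, 17.995 and 31.1 TPM in T47D-TamR, and its ranges overlapped. Its call (log2 difference -0.81, adjusted p = 0.0330) was lost without the BT483 control siRNA, BT483 type 2, T47D-TamR control siRNA or T47D-TamR type 2 library, with adjusted p from 0.0938 to 0.121. MAP3K8 lost its call without the type 2 library of either line (adjusted p = 0.0548 without that of BT483 and 0.0573 without that of T47D-TamR).

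Of the other responders, ICAM1 differed most. ICAM1, a leukocyte adhesion molecule, had 0.986, 0.828, 1.10 and 0.796 TPM in BT483, against 5.18, 9.12 and 16.3 TPM in T47D-TamR (log2 difference -3.83, adjusted p = 7.25e-08). CD83, a surface protein best known from dendritic cells, had 4.03, 3.13, 3.73 and 5.26 TPM in BT483, against 15.4, 18.7 and 37.01 TPM in T47D-TamR (log2 difference -2.69). SOD2, the mitochondrial superoxide dismutase, had 4.71, 3.74, 5.32 and 6.31 TPM in BT483, against 9.77, 12.5 and 14.7 TPM in T47D-TamR (log2 difference -1.51). None of these 3 genes had overlapping ranges. TNFAIP2 had 11.2, 11.7, 8.82 and 10.6 TPM in BT483, against 13.6, 15.8 and 25.97 TPM in T47D-TamR (log2 difference -0.95). IER3, an immediate early gene, had 72.3, 82.5, 93.3 and 74.4 TPM in BT483, against 70.5, 91.96 and 148 TPM in T47D-TamR. The IER3 ranges overlapped, and its difference of -0.52 (adjusted p = 0.00797) lost its call without either NLK siRNA library of BT483 or of T47D-TamR (adjusted p 0.0515 to 0.0678). SOD2 stands for 2 overlapping annotated genes under 1 symbol.

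**Figure D2:**
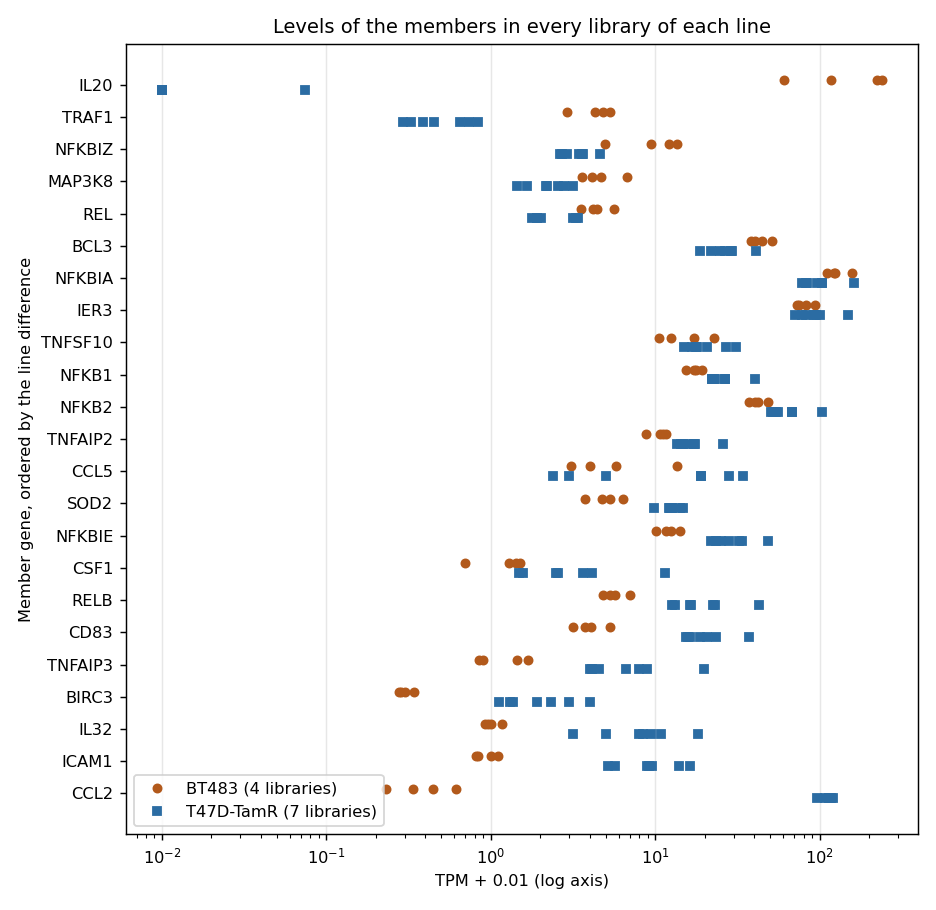
TPM of the 23 well-measured members in every library (log axis, 0.01 added so that 0 can be drawn), circles for 4 BT483 and squares for 7 T47D-TamR libraries. IL20 stands at 60.3 to 241 TPM in BT483 and at or near 0 in T47D-TamR, and CCL2 stands the other way round, while NFKBIA is alike in both.

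Knockdown of NLK was the treatment around which the study was built. In T47D-TamR most members stood higher with both NLK siRNAs than with control siRNA, in BT483 the members lay on both sides of control, and no member passed the test in either line. For knockdown in both lines together, 0 of 31 tested members were called by edgeR, 11 had an unadjusted p under 0.05, and 24 had positive log2 fold changes. The background was 0.00416% of 24023 genes called, which is NLK alone, and 5.54% of genes had an unadjusted p under 0.05. Of the 22 well-measured members other than IL20, 17 were positive. The members' median was 0.38, or 0.37 over those 22, beside 0.024 for all genes. The smallest adjusted p among members was 0.880 (TNFAIP3). DESeq2 also called 0 members, with 10 at an unadjusted p under 0.05, and limma on the deposited log2 TPM values 0, with 6.

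Within T47D-TamR, 0 of 31 members were called by edgeR, against a background of 0.00416%, and 13 had an unadjusted p under 0.05 (11 by DESeq2 and 7 by limma, each with 0 called). Positive fold changes were found for 25, with a median of 0.62 beside 0.035 for all genes. Of the 22 well-measured members other than IL20, 17 were positive, with a median of 0.61. Both NLK siRNA libraries stood above the shared control siRNA library for 21 of 31 members, and 30.5% of all genes did so. The control library enters both differences, and without it the T47D-TamR median was 0.35. Fibroblast markers stood higher with the NLK siRNAs in this line too, at a summed 19.9 and 22.1 TPM with types 1 and 2 (6 and 7 of 7 at 3 counts), against 14.4 TPM with control siRNA (6 of 7). COL1A1 carried most of that sum, with 14.8 and 17.6 TPM against 12.04 TPM with control siRNA. COL1A2 had 1.46 and 1.065 TPM with the NLK siRNAs, against 0.524 TPM with control siRNA, and POSTN 2.37 and 1.93 TPM, against 0.933 TPM. Leukocyte markers summed to 2.53 and 4.66 TPM with the NLK siRNAs, against 2.98 TPM with control siRNA. The part of these in the member values was not tested. In BT483 the fibroblast sums were 3.68 and 3.82 TPM with the NLK siRNAs, against 4.12 TPM with control siRNA. Within BT483, 0 of 31 members were called by edgeR, against 0.00416% of genes, and 2 had an unadjusted p under 0.05 (CCL5 and SOD2). DESeq2 called 0 there, with 2 at that p, and limma 0, with 0. The BT483 median was 0.095, beside 0.0046 for all genes, and both siRNA libraries stood above control for 13 of 31 members, with 31.2% of genes doing so. The difference between lines was called for 0 of 31 members by edgeR, against a background of 0%, with 1 member at an unadjusted p under 0.05 (1 by DESeq2 and 0 by limma, with 0 called). That median was -0.44, and it was -0.16 without the T47D-TamR control siRNA library.

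The feedback inhibitors and regulators were positive in T47D-TamR for 5 of 5, with a median of 0.63, and for 3 of 5 in BT483. The lowest T47D-TamR value was that of NFKBIZ, 0.24 (SE 0.25). TNFAIP3 had 17.7 and 34.1 CPM with NLK siRNA types 1 and 2 in T47D-TamR, against 12.5 CPM with control siRNA. In BT483 TNFAIP3 had 2.33 and 2.86 CPM with the NLK siRNAs, against 1.47 CPM with control siRNA. All 4 knockdown libraries were above their own control, a log2 fold change of 0.97 (SE 0.25) over both lines that did not pass (edgeR adjusted p = 0.880). With no filter on low counts TNFAIP3, CCL5 and CSF1 were called in that test, at adjusted p = 0.0131, 0.0285 and 0.048. NFKBIA had 97.3 and 132 CPM with the NLK siRNAs in T47D-TamR, against 74.8 CPM with control siRNA. BT483 showed 120.3 and 98.96 CPM of NFKBIA with the NLK siRNAs, against 95.6 CPM with control siRNA. IκBα transcript thus lay above control in each of the 4 knockdown libraries, by 0.050 to 0.82 on the log2 scale. NFKBIE had 34.5 and 42.8 CPM with the NLK siRNAs in T47D-TamR, against 21.2 CPM with control siRNA. For NFKBIE in BT483 the values were 11.9 and 8.77 CPM with the NLK siRNAs, against 10.6 CPM with control siRNA. This gene had the smallest adjusted p of the members within T47D-TamR, 0.768 (edgeR, log2 fold change 0.82, SE 0.24), and its BT483 libraries lay on both sides of control.

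The nuclear regulators behaved less alike. BCL3 had 26.8 and 43.3 CPM with the NLK siRNAs in T47D-TamR, against 21.8 CPM with control siRNA. In BT483 BCL3 had 44.9 and 42.05 CPM with the NLK siRNAs, against 38.9 CPM with control siRNA. BCL3 was above control in all 4, mostly through type 2 in T47D-TamR. NFKBIZ had 8.42 and 9.32 CPM with the NLK siRNAs in T47D-TamR, against 7.58 CPM with control siRNA. In BT483 NFKBIZ had 18.03 and 24.2 CPM with the NLK siRNAs, against 26.4 CPM with control siRNA. The 2 lines lay on opposite sides of their controls for NFKBIZ, and the difference between them was not called (-0.58, SE 0.37, edgeR adjusted p = 1).

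Of the subunits, 3 of 4 were positive in T47D-TamR, with a median of 0.57, and REL was the exception. RELB had 27.7 and 44.4 CPM with the NLK siRNAs in T47D-TamR, against 18.5 CPM with control siRNA. In BT483 RELB had 6.87 and 5.39 CPM with the NLK siRNAs, against 5.66 CPM with control siRNA. RELB was thus above control in T47D-TamR with both siRNAs (log2 fold change 0.93, SE 0.27, edgeR adjusted p = 0.775) and within 0.28 of it in BT483. NFKB2 had 127 and 167 CPM with the NLK siRNAs in T47D-TamR, against 96.5 CPM with control siRNA. NFKB1 had 67.4 and 88.4 CPM with the NLK siRNAs in T47D-TamR, against 54.4 CPM with control siRNA. Both precursors followed the order type 2, type 1, control in that line. In BT483 NFKB2 had 74.1 and 59.5 CPM with the NLK siRNAs, against 63.01 CPM with control siRNA. NFKB1 there had 39.6 and 38.03 CPM with the NLK siRNAs, against 36.3 CPM with control siRNA. Each precursor stayed within 0.24 of its BT483 control on the log2 scale. REL had 10.5 and 15.3 CPM with the NLK siRNAs in T47D-TamR, against 15.6 CPM with control siRNA. In BT483 REL had 17.8 and 24.8 CPM with the NLK siRNAs, against 19.2 CPM with control siRNA. Type 1 gave the lower REL value in both lines.

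Among the adaptors, BIRC3 and MAP3K8 stood above control in T47D-TamR and TRAF1 below. BIRC3 had 8.93 and 10.3 CPM with the NLK siRNAs in T47D-TamR, against 6.54 CPM with control siRNA. In BT483 BIRC3 had 0.648 and 0.744 CPM with the NLK siRNAs, against 0.679 CPM with control siRNA, which is 10 to 20 counts. MAP3K8 had 3.89 and 3.83 CPM with the NLK siRNAs in T47D-TamR, against 2.85 CPM with control siRNA. TPL2 transcript was also above control in BT483, where MAP3K8 had 5.32 and 7.99 CPM with the NLK siRNAs, against 4.13 CPM with control siRNA. TRAF1 had 0.675 and 0.681 CPM with the NLK siRNAs in T47D-TamR, against 1.08 CPM with control siRNA. In BT483 TRAF1 had 7.003 and 4.39 CPM with the NLK siRNAs, against 6.34 CPM with control siRNA, so the siRNAs lay on both sides.

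Of the chemokines only CCL5 and CCL2 were well measured. CCL5 had 16.7 and 17.7 CPM with the NLK siRNAs in T47D-TamR, against 10.7 CPM with control siRNA. In BT483 CCL5 had 2.79 and 6.84 CPM with the NLK siRNAs, against 1.98 CPM with control siRNA. CCL5 was above control in all 4 knockdown libraries, with type 2 in BT483 the farthest (1.75), and the fold change over both lines was 0.95 (SE 0.30, edgeR adjusted p = 0.880). CCL2 had 90.2 and 65.8 CPM with the NLK siRNAs in T47D-TamR, against 84.997 CPM with control siRNA. In BT483 CCL2 had 6 and 4 counts with the NLK siRNAs, against 5 counts with control siRNA, too few to read a difference from. The T47D-TamR values of CCL2 lay within 0.37 of control, 1 on either side.

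Of the 3 well-measured cytokines other than IL20, CSF1 and IL32 were positive in T47D-TamR and TNFSF10 was negative. CSF1 had 8.57 and 20.5 CPM with the NLK siRNAs in T47D-TamR, against 5.01 CPM with control siRNA. In BT483 CSF1 had 2.40 and 2.64 CPM with the NLK siRNAs, against 2.21 CPM with control siRNA. CSF1 had the largest T47D-TamR fold change of the well-measured members other than IL20, which has 1 count there, 1.45 (SE 0.43, edgeR adjusted p = 0.806). That value leaned on type 2: it was 0.69 without the type 2 library and 1.95 without type 1, where CSF1 was called (edgeR adjusted p = 0.0495). IL32 had 13.9 and 19.9 CPM with the NLK siRNAs in T47D-TamR, against 9.58 CPM with control siRNA. In BT483 IL32 had 1.04 and 1.26 CPM with the NLK siRNAs, against 0.962 CPM with control siRNA. IL32 followed the order type 2, type 1, control in T47D-TamR. In BT483 its counts were 16 and 34 with types 1 and 2, against 17 with control siRNA, too few to order type 1 and control. TNFSF10 had 24.7 and 32.03 CPM with the NLK siRNAs in T47D-TamR, against 40.3 CPM with control siRNA. In BT483 TNFSF10 had 19.2 and 12.3 CPM with the NLK siRNAs, against 14.2 CPM with control siRNA. TRAIL transcript was below control with both siRNAs in T47D-TamR and on both sides of it in BT483. The T47D-TamR control siRNA library had the highest TNFSF10 value of that line. IL20 had 113 and 61.7 CPM with the NLK siRNAs in BT483, against 124 CPM with control siRNA, and type 2 was the lower of the NLK libraries. TNF itself, with an average just under the level set for full description, had 74 and 119 counts with the NLK siRNAs in T47D-TamR, against 44 with control siRNA. In BT483 TNF had 25 counts with each NLK siRNA, against 11 with control siRNA, in libraries of unequal depth. Scaled for depth, that was 1.62 and 0.929 CPM with types 1 and 2, against 0.623 CPM with control siRNA. The TNF fold change over both lines was 1.02 (SE 0.35, edgeR adjusted p = 0.880).

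The other responders were positive in T47D-TamR for 4 of 5, and SOD2 was the exception. ICAM1 had 19.2 and 19.3 CPM with the NLK siRNAs in T47D-TamR, against 12.3 CPM with control siRNA. In BT483 ICAM1 had 1.10 and 0.967 CPM with the NLK siRNAs, against 0.906 CPM with control siRNA. ICAM1 is one of the few members whose T47D-TamR values were alike with both siRNAs. CD83 had 15.4 and 30.3 CPM with the NLK siRNAs in T47D-TamR, against 16.8 CPM with control siRNA. In BT483 CD83 had 3.11 and 2.53 CPM with the NLK siRNAs, against 4.13 CPM with control siRNA. CD83 was above control with type 2 in T47D-TamR alone. TNFAIP2 had 35.1 and 44.9 CPM with the NLK siRNAs in T47D-TamR, against 25.8 CPM with control siRNA. In BT483 TNFAIP2 had 18.2 and 19.9 CPM with the NLK siRNAs, against 17.7 CPM with control siRNA. IER3 had 53.7 and 68.6 CPM with the NLK siRNAs in T47D-TamR, against 39.7 CPM with control siRNA. These 2 genes again showed the order type 2, type 1, control in T47D-TamR. In BT483 IER3 had 31.6 and 37.7 CPM with the NLK siRNAs, against 33.1 CPM with control siRNA. SOD2 had 87.1 and 60.96 CPM with the NLK siRNAs in T47D-TamR, against 96.6 CPM with control siRNA. In BT483 SOD2 had 27.7 and 22.97 CPM with the NLK siRNAs, against 37.8 CPM with control siRNA. SOD2 lay below control in all 4 knockdown libraries, with a fold change of -0.45 (SE 0.15, edgeR adjusted p = 0.880).

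**Figure D3:**
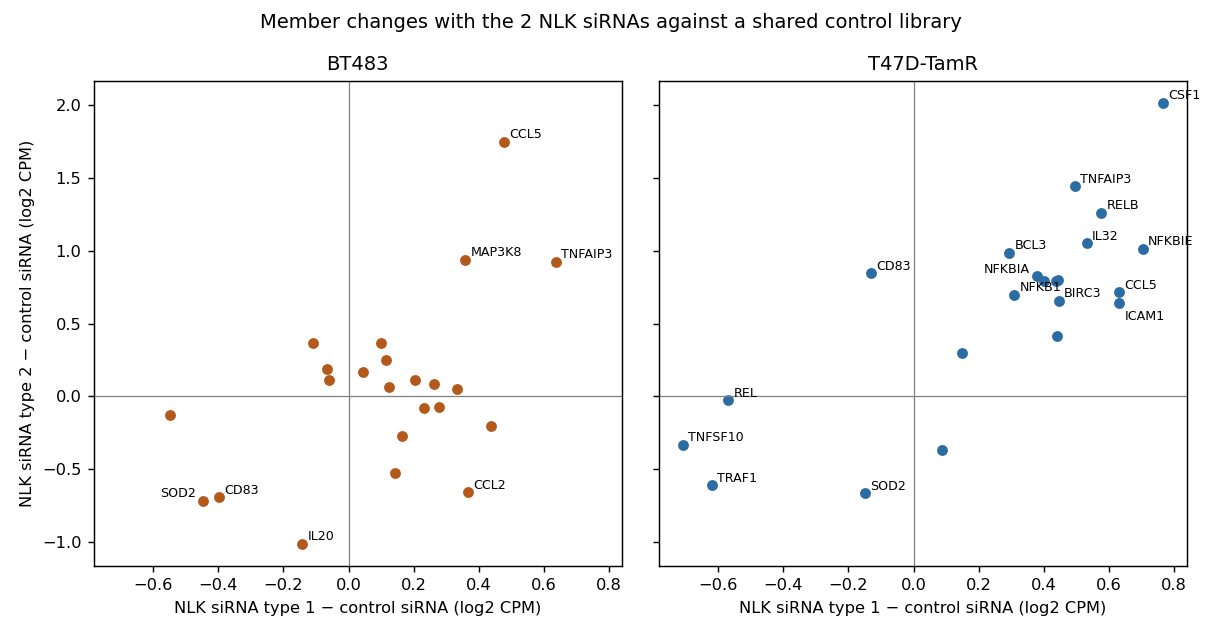
Log2 CPM differences of the well-measured members with NLK siRNA type 1 (horizontal) and type 2 (vertical) against the control siRNA library of the line, BT483 on the left and T47D-TamR on the right, where IL20 is left out as unmeasured; both axes of a panel share 1 control library. In T47D-TamR most members fall in the upper right with CSF1 at the top (2.01 with type 2), and in BT483 they spread around 0.

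Other genes of the pathway were read beside the members, in lists also chosen with earlier results of these data known. Signalling components (32 genes, such as IκB kinases, TRAF proteins and receptor adaptors) had a median of 0.099 for knockdown in both lines, with 23 of 32 positive. TICAM1 and MYD88, adaptors of Toll-like receptors, led them at 0.54 and 0.53. Of 26 receptor genes 20 were tested, 17 of them positive, with a median of 0.23. Further NF-κB targets outside the members were positive for 24 of 28 tested of 43 listed, with a median of 0.26, and TAP1, a peptide transporter of antigen presentation, stood at 0.97. In these lists edgeR called 0 genes, and 4, 4 and 7 had an unadjusted p under 0.05. Interferon-stimulated genes were positive in 34 of 34, with a median of 1.05, 11 at an unadjusted p under 0.05 and 0 called. Their medians were 0.67 within T47D-TamR and 1.47 within BT483, the other way round from the members, at 0.62 and 0.095. CCL5, CXCL10 and TNFSF10 are also known to answer to interferon, and the part of that signal in the member values was not tested.

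A comparison of the NLK siRNAs with each other asked whether members depended on the siRNA used. Type 2 minus type 1 was called for 0 of 31 members by edgeR, against a background of 0.47% of genes, and 8 had an unadjusted p under 0.05 (3 by DESeq2 and 4 by limma, each with 0 called). Of the 31, 22 were positive, with a median of 0.24 beside 0.0085 for all genes. That median was -0.27 without the T47D-TamR type 2 library and 0.42 without the BT483 type 2 library. In both lines type 2 stood above type 1 for 12 of 31 members, and 27.1% of all genes did the same. TNFAIP3 differed by 0.70 (SE 0.22, edgeR adjusted p = 0.263) and REL by 0.51 (adjusted p = 0.386), both with type 2 higher in each line. IL20 had the smallest adjusted p of the members, 0.170 (edgeR), at -0.91 with type 2 lower. That value rested on BT483 alone, at 61.7 CPM with type 2 and 113 CPM with type 1, since IL20 was unmeasured in T47D-TamR. CCL2 and SOD2 were also lower with type 2, at -0.53 and -0.40, without a call. The CCL2 value rested on T47D-TamR, since BT483 had 6 and 4 counts with types 1 and 2. Outside the members, TNIP1, a partner of A20, was called at 0.90 (edgeR adjusted p = 0.0418) and PLAU, a urokinase gene, at 1.10 (adjusted p = 0.0474). Both calls were lost without the BT483 type 1 library or any T47D-TamR library other than control siRNA with tamoxifen (adjusted p from 0.0521 to 0.678), and with limma. PLAU also lost its call without the BT483 type 2 library (adjusted p = 0.152). Without the type 1 library of either line edgeR called 0 genes in this comparison, where it called 113 with all libraries. Interferon-stimulated genes were positive in 34 of 34 here, with a median of 1.26 and 3 called. Each call was lost without the type 1 library of either line, the BT483 type 2 library or the DMSO with tamoxifen library. Of the members named above as answering to interferon, CCL5 stood at 0.67, CXCL10 at 1.53 and TNFSF10 at -0.10. CXCL10 was poorly measured, with an average log2 CPM of -0.67.

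No member passed a test for VX-702. The VX-702 term of the fit over all libraries, a test added after the data were seen, takes its 1 library to vary like the others. By edgeR 0 of 31 members were called, against a background of 0% of genes, and 3 members (IL32, MAP3K8 and ICAM1) and 4.52% of genes had an unadjusted p under 0.05 (3 members by DESeq2 and 3 by limma, each with 0 called). IL32 stood at 1.26 (SE 0.34, edgeR adjusted p = 0.942), MAP3K8 at 0.86 (SE 0.36) and ICAM1 at 0.86 (SE 0.32). Of the 22 well-measured members other than IL20, 17 were positive, with a median of 0.32 beside 0.023 for all genes. The values that follow set the VX-702 library beside the DMSO library alone, with intervals that cover counting error only. Of the 17 members with an average of at least 5 CPM in the pair, 13 stood higher with VX-702, with a median log2 difference of 0.26 beside 0.052 for 11738 genes. A single member passed a difference of 1 log2 unit, and 0.349% of genes did. IL32 was that member, with 286 counts with VX-702 and 143 with DMSO, a CPM ratio of 2.06 (95% interval 1.68 to 2.53). ICAM1 had 12.1 CPM with VX-702, against 7.15 CPM with DMSO, a ratio of 1.70 (95% interval 1.40 to 2.06). RELB had 19.6 CPM with VX-702, against 13.8 CPM with DMSO, a ratio of 1.42 (95% interval 1.23 to 1.64). These 3 genes were the widest on the high side, and CD83 was next to them with 19.4 CPM with VX-702, against 13.7 CPM with DMSO. REL had 9.85 CPM with VX-702, against 15.8 CPM with DMSO, a ratio of 0.625 (95% interval 0.529 to 0.737). It was the one of the 17 whose interval lay wholly below 1.

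The inhibitor genes stood slightly high with VX-702. NFKBIA had 89.8 CPM with VX-702, against 67.3 CPM with DMSO. NFKBIE had 28.4 CPM with VX-702, against 21.98 CPM with DMSO. TNFAIP3 had 9.02 CPM with VX-702, against 7.47 CPM with DMSO, and its ratio of 1.21 (95% interval 0.986 to 1.48) includes 1. BCL3, at 30.4 CPM with VX-702 and 32.3 CPM with DMSO, and NFKBIZ, at 6.10 CPM with VX-702 and 6.17 CPM with DMSO, were level. NFKB2 had 103 CPM with VX-702, against 86.04 CPM with DMSO. NFKB1 had 57.9 CPM with VX-702, against 51.4 CPM with DMSO. The precursors differed by 0.26 and 0.17 on the log2 scale. CCL2 had 92.1 CPM with VX-702, against 87.1 CPM with DMSO. TNFSF10 had 20.2 CPM with VX-702, against 21.003 CPM with DMSO. Their intervals both include 1. SOD2 had 89.6 CPM with VX-702, against 83.2 CPM with DMSO. TNFAIP2 had 31.4 CPM with VX-702, against 26.9 CPM with DMSO. IER3 had 48.9 CPM with VX-702, against 40.7 CPM with DMSO, the last of the 3 responders with small positive differences. Members averaging under 5 CPM included CCL5 with 71 counts with VX-702 and 40 with DMSO, CSF1 at 5.09 CPM with VX-702 and 2.97 CPM with DMSO, MAP3K8 at 3.55 CPM with VX-702 and 2.11 CPM with DMSO, and BIRC3 at 3.84 CPM with VX-702 and 5.16 CPM with DMSO. TRAF1 had 12 counts with VX-702, against 33 with DMSO. Its ratio of 0.374 (95% interval 0.176 to 0.742) lay below 1 at these low counts. The same DMSO library is the control for tamoxifen in the drug arm, where TRAF1 had 14 counts.

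Against their own controls in T47D-TamR, 17 of 31 members stood higher in all 3 of the type 1, type 2 and VX-702 libraries, and 21.7% of all genes did. They included TNFAIP3, NFKBIA, NFKBIE, NFKB1, NFKB2, RELB, IL32, CSF1, ICAM1 and CCL5. Also among them were IL6, CCL20 and TNF, with 4, 3 and 30 counts with VX-702, against 4, 2 and 29 with DMSO. Such counts do not tell a rise from none. The NLK siRNAs share 1 control library, while VX-702 has another, the DMSO library that also serves tamoxifen in the drug arm.

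No member passed the test for tamoxifen. Over both lines 0 of 31 members were called by edgeR, against a background of 0.0416% of genes, all of them lower with tamoxifen, and 2 members had an unadjusted p under 0.05 (1 by DESeq2 and 1 by limma, each with 0 called). There were 16 positive and 15 negative members, with a median of 0.0090 beside 0.019 for all genes. IL20 had 33.02 CPM with tamoxifen in BT483, against 124 CPM with control siRNA alone. The fold change was -1.91 (SE 0.38, edgeR adjusted p = 0.159), resting on the BT483 pair alone since both T47D-TamR pairs had 0 counts. Without the BT483 type 2 library IL20 was called, at -1.92 (edgeR adjusted p = 0.0348). REL had 8.29 CPM with tamoxifen in transfected T47D-TamR, against 15.6 CPM without it. In the drug arm REL had 9.47 CPM with tamoxifen, against 15.8 CPM with DMSO. In BT483 REL had 16.2 CPM with tamoxifen, against 19.2 CPM without it. REL was lower with tamoxifen in all 3 pairs (-0.61, SE 0.19, edgeR adjusted p = 0.426). The DMSO library of the drug arm pair was also the control for VX-702. The tamoxifen and VX-702 differences of REL, BIRC3 and TRAF1 in that arm are therefore not independent. Of 31 members 3 were lower in all 3 pairs (REL, CXCL10 and CCL5), as were 13.2% of genes. Another 3 were higher in all 3 pairs (TNFAIP3, BCL3 and NFKB2), as were 15.2% of genes.

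By line, 0 of 31 members were called for a difference in the tamoxifen effect by edgeR, against 0.691% of genes (166), and 2 had an unadjusted p under 0.05 (2 by DESeq2 and 2 by limma, each with 0 called). That background fell to 0 genes without the T47D-TamR control siRNA, control siRNA with tamoxifen or DMSO with tamoxifen library, and to 9 without the DMSO library. NFKBIZ had 10.2 CPM with tamoxifen in BT483, against 26.4 CPM with control siRNA alone. In transfected T47D-TamR cells NFKBIZ had 7.66 CPM with tamoxifen, against 7.58 CPM without it. The drug arm had 6.02 CPM of NFKBIZ with tamoxifen, against 6.17 CPM with DMSO. The NFKBIZ difference between lines was -1.43 (SE 0.39, edgeR adjusted p = 0.154). TNFSF10 had 27.3 CPM with tamoxifen in BT483, against 14.2 CPM without it. In transfected T47D-TamR cells TNFSF10 had 25.1 CPM with tamoxifen, against 40.3 CPM without it. In the drug arm TNFSF10 had 23.05 CPM with tamoxifen, against 21.003 CPM with DMSO. TRAIL was thus high in BT483 with the drug and low in 1 of the T47D-TamR pairs, with a line difference of 1.16 (edgeR adjusted p = 0.464). The control of that pair is the same high control siRNA library from which the NLK siRNAs were measured. BIRC3 had 3.60 CPM with tamoxifen, against 6.54 CPM without it, in transfected T47D-TamR. In the drug arm BIRC3 had 3.14 CPM with tamoxifen, against 5.16 CPM with DMSO. Both T47D-TamR pairs were lower with tamoxifen for BIRC3, and BT483 had 0.872 CPM with tamoxifen, against 0.679 CPM without it.

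BCL3 had 55.02 CPM with tamoxifen in BT483, against 38.9 CPM without it. In transfected T47D-TamR cells BCL3 had 29.1 CPM with tamoxifen, against 21.8 CPM without it. In the drug arm BCL3 had 34.3 CPM with tamoxifen, against 32.3 CPM with DMSO. BCL3 stood higher with tamoxifen each time, at 0.35 on the log2 scale (SE 0.19). The transfected T47D-TamR control, the lowest BCL3 library of that line, also enters the NLK siRNA differences. TRAF1 had 0.537 CPM with tamoxifen in the drug arm, against 1.34 CPM with DMSO, but 1.16 CPM with tamoxifen in the siRNA arm, against 1.08 CPM without it. CSF1 had 1.25 CPM with tamoxifen in BT483, against 2.21 CPM without it, and the T47D-TamR pairs lay at 0.43 and -0.024. IL32 had 3.83 CPM with tamoxifen in the drug arm, against 5.81 CPM with DMSO, while its other pairs lay at 0.13 in BT483 and 0.0092 in transfected T47D-TamR. In TRAF1, CSF1 and IL32 a single pair stood apart from the gene's other pairs. The other well-measured members, CCL5, CCL2, SOD2, NFKBIA, NFKBIE, NFKB1, NFKB2, RELB, TNFAIP3, TNFAIP2, MAP3K8, CD83, IER3 and ICAM1, lay between -0.40 and 0.51 on the log2 scale in every tamoxifen pair.

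**Figure D4:**
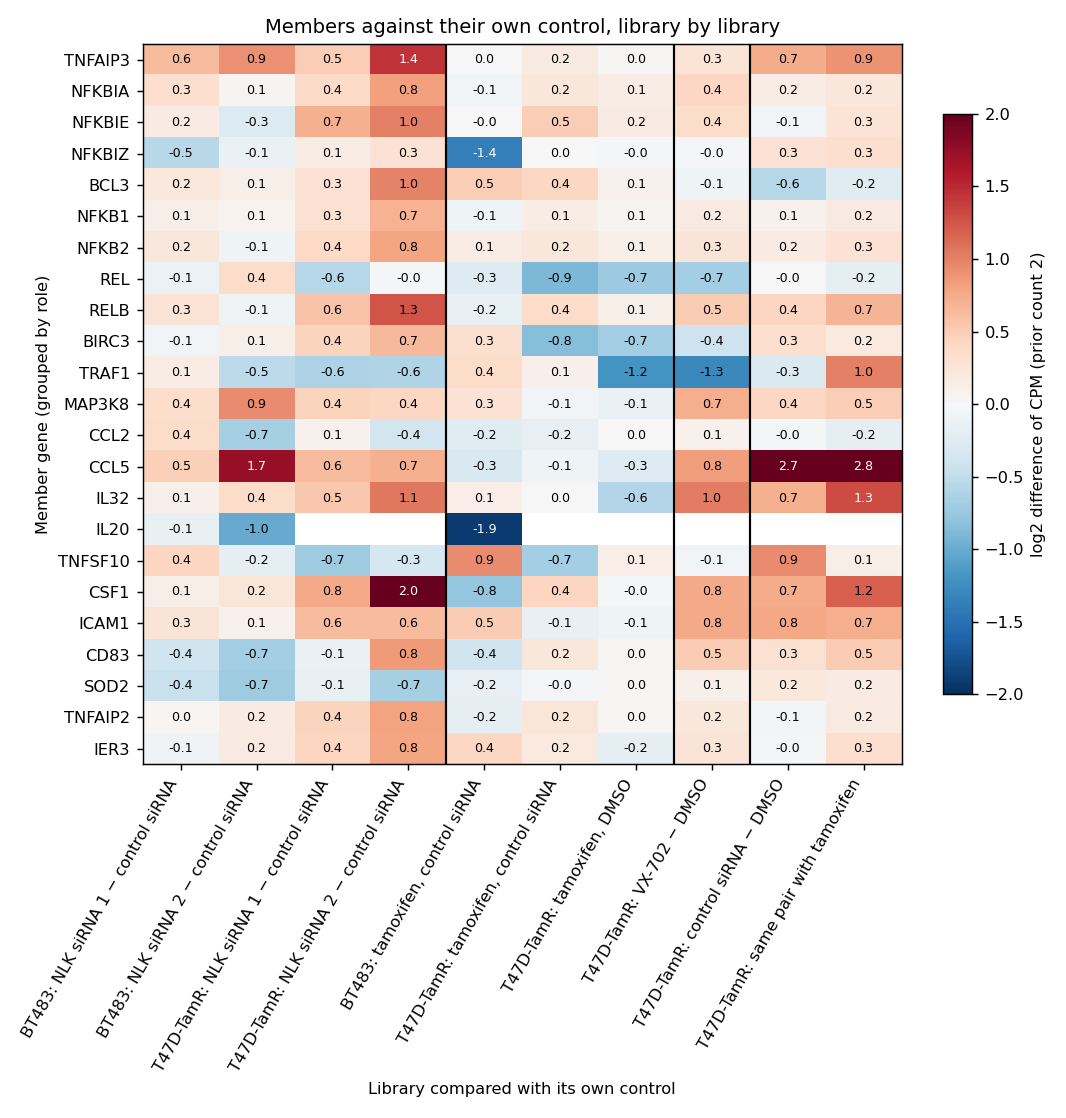
Log2 CPM differences of each library from its own control for the 23 well-measured members, red higher and blue lower, with vertical lines between the NLK siRNA, tamoxifen, VX-702 and transfection columns, and IL20 blank in T47D-TamR. The T47D-TamR type 2 column is the reddest of the NLK columns and the tamoxifen columns are pale, with IL20 (-1.91) and NFKBIZ (-1.37) in BT483 and TRAF1 (-1.20) in the drug arm as the darkest cells.

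The siRNA arm and the drug arm of T47D-TamR, each with control and tamoxifen libraries, allow transfected cells to be set against untransfected ones, a comparison chosen after the data were seen. The control siRNA, the transfection reagent and any difference in handling between the arms cannot be told apart. CCL5 was the only member called. CCL5 had 10.7 CPM with control siRNA, against 1.62 CPM with DMSO, a ratio of 6.61 (95% interval 4.73 to 9.46). With tamoxifen present CCL5 had 10.2 CPM in transfected cells, against 1.34 CPM in untransfected cells. The pairs were alike, with a log2 difference of 2.69 (SE 0.37, edgeR adjusted p = 0.0355), and 0.0333% of genes were called. The CCL5 fold change stayed between 2.45 and 2.86 when any 1 library was left out, but the call was lost without the BT483 control siRNA library or any T47D-TamR library other than NLK siRNA type 2 (adjusted p from 0.0523 to 1). With limma on the deposited values CCL5 stood at 2.16 (adjusted p = 0.504), and DESeq2 called it (adjusted p = 1.42e-07).

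Of the 31 members 27 were positive in this comparison, with a median of 0.59 (0.36 over the 22 well-measured members other than IL20) beside 0.0088 for all genes, and 9 had an unadjusted p under 0.05. In both pairs 20 of 31 stood higher in transfected cells, as did 24.7% of genes. IL32 had 9.58 CPM with control siRNA, against 5.81 CPM with DMSO, and with tamoxifen 9.64 CPM, against 3.83 CPM. ICAM1 had 12.3 CPM with control siRNA, against 7.15 CPM with DMSO, and with tamoxifen 11.2 CPM, against 6.75 CPM. TNFAIP3 had 12.5 CPM with control siRNA, against 7.47 CPM with DMSO, and with tamoxifen 14.2 CPM, against 7.59 CPM. All 3 stood higher in transfected cells in both pairs, at 1.15 for IL32, 0.93 for ICAM1 and 0.88 for TNFAIP3, and none was called (edgeR adjusted p = 0.380, 0.617 and 0.752). RELB had 18.5 CPM with control siRNA, against 13.8 CPM with DMSO, and with tamoxifen 24.02 CPM, against 14.96 CPM. CSF1 had 5.01 CPM with control siRNA, against 2.97 CPM with DMSO, and with tamoxifen 6.79 CPM, against 2.91 CPM. Both followed the same direction, without a call. CXCL10 had 21 counts with control siRNA, against 3 with DMSO, and with tamoxifen 13 counts, against 1. TNFSF10 had 40.3 CPM with control siRNA, against 21.003 CPM with DMSO, but with tamoxifen 25.1 CPM, against 23.05 CPM. Its difference thus appeared in 1 pair, that of the control siRNA library, which also enters its NLK siRNA and tamoxifen differences.

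Set as 1 library against 1, control siRNA minus DMSO put 13 of 19 members with at least 5 CPM on the high side, with a median of 0.22 beside 0.0072 for 11766 genes. CCL5 alone passed 1 log2 unit, and 0.969% of genes did. BCL3 was the widest on the low side, with 21.8 CPM with control siRNA, against 32.3 CPM with DMSO, a ratio of 0.675 (95% interval 0.604 to 0.754). The same control siRNA library enters the BCL3 differences with the NLK siRNAs and with tamoxifen. NFKBIE, REL, CCL2, TNFAIP2 and IER3 differed by less than 0.06 on the log2 scale. Interferon-stimulated genes were positive in 34 of 34 between the arms, with a median of 1.55, 12 at an unadjusted p under 0.05 and 0 called by edgeR, beside CCL5 and CXCL10, and their part in the CCL5 difference was not tested. Of the receptor genes IL6R, the interleukin 6 receptor, was called at 1.70 (SE 0.26, edgeR adjusted p = 0.0461). That call was lost without the BT483 control siRNA or type 1 library, or any T47D-TamR library other than type 2 (adjusted p from 0.0523 to 1), and with limma (adjusted p = 0.626). The level from which the NLK siRNAs were measured in T47D-TamR is the transfected control.

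**Figure D5:**
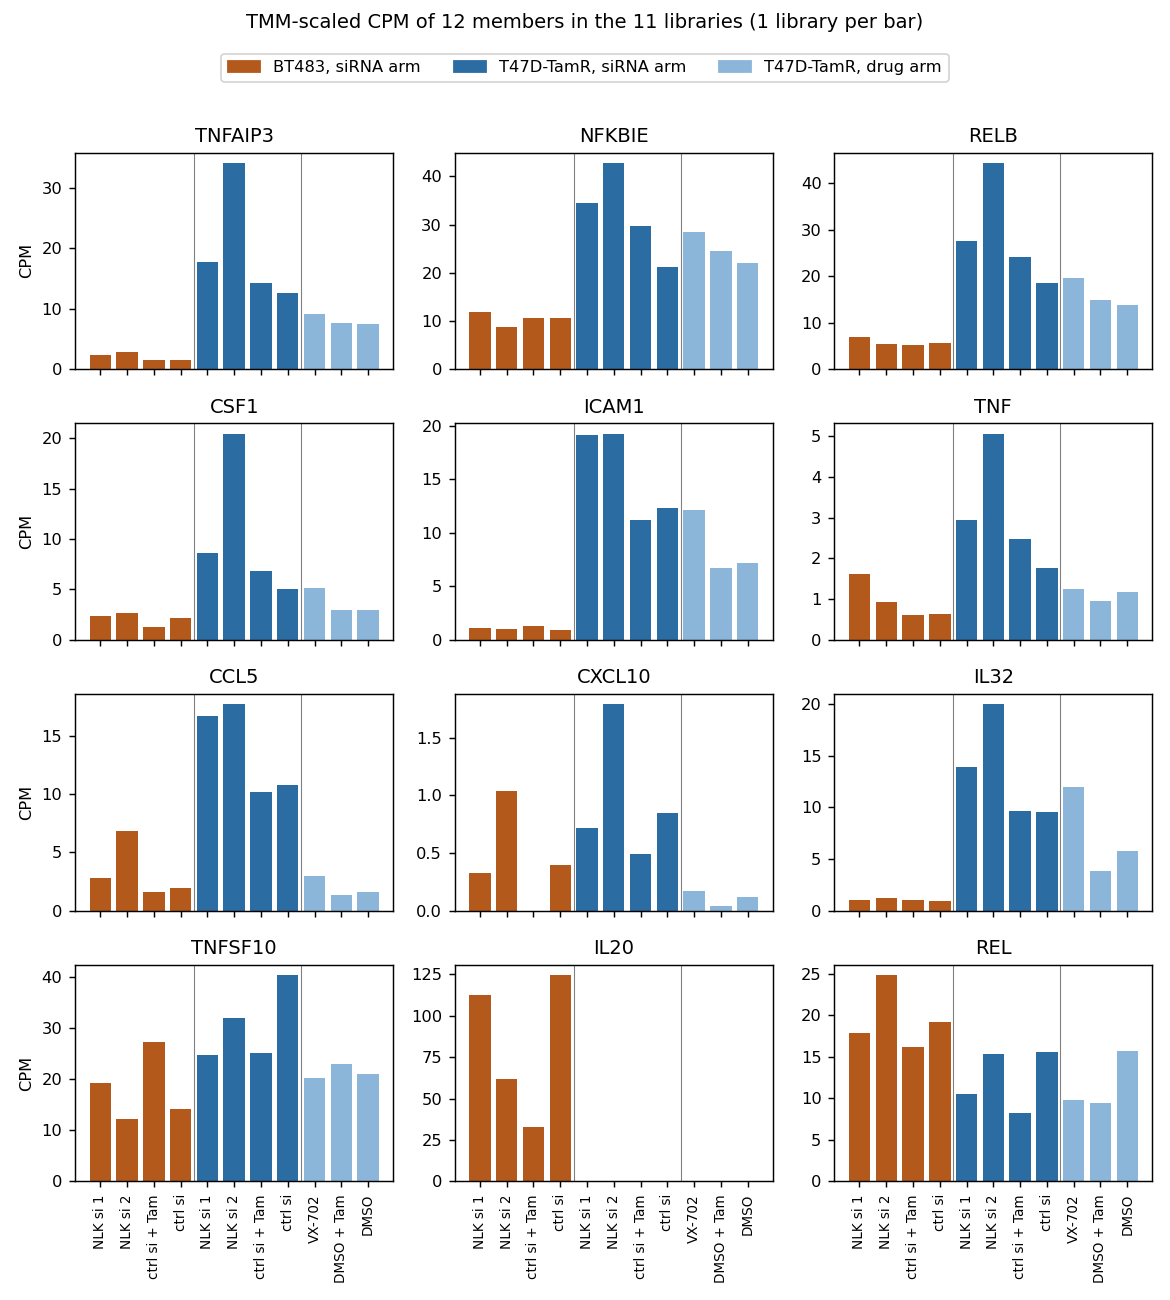
CPM of 12 members in the 11 libraries, 1 bar per library, with BT483 (brown), the T47D-TamR siRNA arm (dark blue) and the T47D-TamR drug arm (light blue) and the control on the right of each block. CCL5 and CXCL10 are low in the light blue bars, TNFAIP3, RELB and CSF1 are highest with NLK siRNA type 2 in T47D-TamR, and IL20 bars are seen in BT483 alone.

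The remaining members were at the edge of detection. CXCL1, CXCL2, CXCL3, CXCL11 and IL1A were too low to be tested, with at most 8 counts in any library. CXCL8, the neutrophil attractant interleukin 8, reached 9 and 15 counts with NLK siRNA types 1 and 2 in T47D-TamR, against 3 with control siRNA, and had 0 counts in each drug arm library. CCL20 had 10 and 13 counts with the NLK siRNAs in T47D-TamR, against 7 with control siRNA, and at most 2 counts in BT483. Both chemokines thus followed the order type 2, type 1, control at levels where a few reads decide, and other members this low did not. In T47D-TamR IL1B had 3 and 8 counts with types 1 and 2, against 15 with control siRNA. IL1A had 1 and 3 counts, against 8, and CXCL11 had 2 and 2, against 8. IL6 had 12 and 5 counts, against 1, and LTB had 11 and 6, against 7. CXCL1 had 3 and 6 counts, against 3, CXCL2 had 3 and 3, against 0, and CXCL3 had 0 and 1, against 0. IL6 had at most 12 counts, IL1B at most 15 and LTB, the neighbour of TNF on chromosome 6, at most 11. CXCL10 had 28 counts with NLK siRNA type 2 in BT483, 5 with type 1, 0 with control siRNA and tamoxifen and 7 with control siRNA. In T47D-TamR CXCL10 had 42 and 18 counts with types 2 and 1, against 21 with control siRNA, so type 2 was the highest library in each line. The inflammatory cytokines TNF, IL6, IL1A and IL1B stayed at or below 8.78 TPM in every library, TNF being the highest of them.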

How the data were processed

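Poly(A) RNA of 11 libraries was sequenced, 4 of BT483 and 7 of T47D-TamR, each condition with 1 library. The deposited counts are whole numbers of reads per gene symbol that the authors assigned with featureCounts, per the file names, with GRCh38 as the build, per the submitters' processing notes. Which aligner and annotation were used, and whether reads were counted by strand, is not given in the sources used here. Also deposited were log2(TPM + 1) values per library made by the authors and a matrix of log2 TPM values whose distributions were made nearly equal between libraries, which limma used. TPM in the text is read back from the deposited log2 values. The deposited counts divided by the TPM gave 1 gene length per gene within a tolerance of 0.01 for each of 10215 genes checked.

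Counts of all genes were scaled by TMM (factors 0.937 to 1.06), filtered on low counts with edgeR 4.0.16 defaults (R 4.3.3) and fitted with its quasi-likelihood test, with p-values adjusted over all genes after Benjamini and Hochberg and a threshold of 0.05. Since each condition had 1 library, the spread was estimated from how far the libraries depart from fits in which treatments act alike across lines or siRNAs. A fit with a block for the BT483 siRNA arm, the T47D-TamR siRNA arm and the T47D-TamR drug arm gave NLK knockdown (both siRNAs as replicates), tamoxifen and VX-702 terms on 5 residual degrees of freedom. Fits per line (3), for siRNA type 2 minus type 1 (4) and for the lines (8 libraries, 3) followed. The VX-702 term was tested there as an addition after the data were seen. VX-702 against DMSO and control siRNA against DMSO were also set as 1 library against 1, on log2 CPM with a prior count of 2, for genes averaging at least 5 CPM, with exact binomial intervals of 95% on counts. CPM in the text uses TMM-scaled totals. SE in the text is the absolute log2 fold change divided by the square root of the F statistic of its test. Well-measured members, 23 of 36, are those with an average log2 CPM of at least 1. They are named with their values, the other members by range, and genes of other lists by at most 2 examples of largest change. DESeq2 1.42.0, limma 3.58.1, other scalings and filters, no block, and leaving out each library were tried. The scripts were tested on simulated counts.

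The members and all gene lists were chosen with earlier results of these data known. Promoter windows are from RefSeq. Some genes, LTBR among them, were not analysed here.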

Additional observations from a re-analysis of the deposited data

Results flagged for a closer look

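NFKBIZ, which encodes a nuclear IκB protein, is listed because both NLK siRNA libraries lay on one side of control in one line and on the other side in the other line. In BT483 the log2 CPM differences from control siRNA were -0.55 with type 1 and -0.13 with type 2. In T47D-TamR they were 0.15 with type 1 and 0.30 with type 2. Each line has 1 control library, which enters both of its differences. That opposite placing was not tested by itself, and the line difference of the knockdown effect was -0.58 (SE 0.37, edgeR adjusted p = 1).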

How the results depend on the processing

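No paired analysis was possible because the labels number no replicates and each condition had 1 library, so libraries are paired by treatment and arm alone. With no filter on low counts edgeR called 3 members for knockdown in both lines (TNFAIP3, CCL5 and CSF1), 1 for knockdown in T47D-TamR (CSF1, 1.42, adjusted p = 0.0135), 1 for tamoxifen (IL20, -1.89, adjusted p = 2.81e-07), 1 for the line difference of tamoxifen (TNFSF10, 1.22, adjusted p = 0.0492) and 4 between the T47D-TamR arms (CCL5, CSF1, CXCL10 and IL32). Between the arms 0 members were called with at least 10 counts in every library (CCL5 2.68, adjusted p = 0.102) and 0 with limma. With the deposited log2(TPM + 1) values 0 members passed 1 log2 unit with VX-702. Leaving out 1 library at a time gave 0 to 1 members called for tamoxifen, 0 to 1 for knockdown in T47D-TamR, 0 to 1 between the arms and 22 to 26 between the lines. The median knockdown effect of the members ran from 0.18, without the T47D-TamR control siRNA library, to 0.49.

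Over all genes, knockdown in both lines gave 1 call, against 249 with no filter, 32 with DESeq2 and 0 with limma, with no block or with at least 10 counts. Tamoxifen gave 10 calls, against 513, 121 and 0 under the same settings, and 81 without the BT483 control siRNA library. Type 2 minus type 1 gave 113 calls, against 339, 327 and 0 (50 with at least 10 counts). The arms gave 8, against 206, 44 and 0. The line difference of tamoxifen gave 166, against 502, 332 and 1 (116 with at least 10 counts), and 0 to 271 when 1 library was left out. VX-702 gave 0, against 44, 1 and 0, with 0 members called under each setting. Between the lines, limma gave no call for REL, MAP3K8, TNFSF10 and IER3 (adjusted p from 0.0651 to 0.380). No well-measured member that passed a test changed sign under these settings. The signs of IRAK2, TNF and CXCL10, which also passed between the lines, were not checked. Depth limits the members with a few counts per library, such as CXCL8 and CCL20, for which no difference was detectable.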
